A study of Homo sapiens with 12 samples.

Results

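The 10 genes described here encode zinc and manganese transporters: the SLC30 exporters SLC30A1, SLC30A4, SLC30A5, SLC30A7, SLC30A9 and SLC30A10, and the SLC39 importers SLC39A1, SLC39A6, SLC39A10 and SLC39A14. They were taken by symbol from tables of 60835 symbols, and all 10 symbols were found. The list was drawn up with the levels and changes of these genes in both knockdowns already known. Fold changes and calls of the 10 genes are therefore a description of them and not independent support for any pattern. SLC30 proteins (ZnT) move zinc out of the cytosol, across the plasma membrane or into secretory vesicles and organelles, and SLC39 proteins (ZIP) move it into the cytosol. SLC30A10 and SLC39A14 carry manganese: the first exports it from cells and the second takes it up. Normal prostate epithelium is known for accumulating zinc and for secreting citrate, because high zinc slows the oxidation of citrate, and prostate cancers usually lose much of that zinc.

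RNA was sequenced from LNCaP cells, an androgen-sensitive human prostate cancer line (written LACAP in the labels), in 12 libraries of 3 biological replicates per group. Cells with control shRNA were set against cells with shRNA-FOXA1, and a separate set of control shRNA cells against cells with shRNA-TRIM28. FOXA1 opens chromatin for other transcription factors in luminal prostate cells, and TRIM28 silences chromatin to which KRAB zinc finger proteins bring it. All 12 libraries carry the same batch label. The time after treatment and the number of hairpins per gene were not given in the sources used here. Nothing says that the biological replicates were separate cultures, so p-values measure only the spread between these samples, which may be technical. Libraries held between 12256092 and 15152890 counts. FOXA1 stood at 28.6% to 29.2% of its control mean in the FOXA1 knockdown. TRIM28 stood at 32.0%, 28.5% and 13.99% in replicates 1, 2 and 3 of the TRIM28 knockdown, lowest in replicate 3. In the TRIM28 knockdown FOXA1 stood at 47.3%, 43.0% and 70.1% of control, highest in replicate 3. All 7 luminal markers, among them KLK3, KLK2, KRT8, KRT18, TMPRSS2 and ACP3, were above 1 FPKM (fragments per kilobase of gene and per library total) in every library, and none of 3 basal and 3 leukocyte markers was above that level in all 12 libraries. The luminal markers summed to 370.0 to 387 FPKM in the TRIM28 controls and 231 to 256 FPKM in the TRIM28 knockdown. There 6 of 7 were called lower, where 13.3% of all tested genes were. The KRT18 and ACP3 calls were lost in some fits that left out 1 library. In the FOXA1 comparison the sums were 358 to 375 and 378 to 390 FPKM. There 4 of 7 were called higher and 2 lower, where 26.1% and 26.3% of all tested genes were, with ACP3 at 36.1% of control. The basal markers summed to at most 0.447 FPKM in the FOXA1 controls and 1.74 to 2.11 FPKM in the FOXA1 knockdown. That rise was mostly KRT14, with means of 0.200 and 1.73 FPKM. KRT5 (0.0714 and 0.132 FPKM) and TP63 (0.0228 and 0.00507 FPKM) were too low to be tested, and their groups overlapped. Replicate 3 of the TRIM28 knockdown stood apart: its counts differed from those of replicates 1 and 2 with a chi-square per degree of freedom of 25.8 and 23.3, against 3.12 to 6.31 for pairs within the other groups and 4.03 for replicates 1 and 2. The summed level of the 4 stromal markers COL1A1, COL3A1, DCN and PDGFRB ran from 5.18 to 60.6 FPKM across that group and from 4.41 to 6.11 FPKM over the other groups, with COL3A1 at 188 CPM in replicate 3. The part of these markers in the results below was not tested, and fitted changes of the transporters and the listed genes in the TRIM28 knockdown are given with and without replicate 3.

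Promoter stretches of 2 exporters are shown first, SLC30A1 because its level was higher in both knockdowns and SLC30A10 because it had the largest change. Each is the 250 bases before the transcription start, from RefSeq (GRCh38.p14), both genes being on the minus strand of chromosome 1, and capitals mark a match to the core of the metal response element, which the zinc sensor MTF1 binds (TGCACNC or TGCGCNC on either strand).
SLC30A1, chr1:211579162-211579411: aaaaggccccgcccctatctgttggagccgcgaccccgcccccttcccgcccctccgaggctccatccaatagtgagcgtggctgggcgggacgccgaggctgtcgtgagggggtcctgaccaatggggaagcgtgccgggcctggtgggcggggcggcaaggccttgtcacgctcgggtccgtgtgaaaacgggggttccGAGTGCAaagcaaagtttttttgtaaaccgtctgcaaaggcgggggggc
SLC30A10, chr1:219959099-219959348: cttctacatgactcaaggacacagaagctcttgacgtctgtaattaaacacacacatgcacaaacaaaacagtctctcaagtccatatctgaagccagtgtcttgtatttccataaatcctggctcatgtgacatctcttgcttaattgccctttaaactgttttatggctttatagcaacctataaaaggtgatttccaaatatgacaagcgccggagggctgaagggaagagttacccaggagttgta
The SLC30A1 stretch holds 1 match, which begins 49 bases before the start, and the window that runs on to 50 bases past the start holds 2. The SLC30A10 window, whose RefSeq start lies upstream of the start in the deposited tables, holds 0. Promoters of 9 of the 10 genes were matched, SLC39A14 being the other, and 3 of the 9 windows (SLC30A1, SLC30A4 and SLC39A6) hold the motif, against 29.6% of 35116 RefSeq promoter windows of that length. A forkhead core (TGTTTAC or TATTTAC, either strand), the kind of motif FOXA1 binds, was found in 1 of the 9, SLC30A9, against 5.97% of all windows. These are matches of letters in a short window and say nothing of binding.

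In the controls the transporters spanned a wide range of levels. Per gene length, SLC39A6, an importer of the plasma membrane that responds to estrogen in breast cells, was highest at 57.8 ± 1.64 FPKM (SD, n = 6 controls). SLC39A14 followed at 44.1 ± 2.32 FPKM, and then came SLC30A4, which loads zinc into secretory vesicles, at 34.4 ± 1.65 FPKM. Importers and exporters thus both stood among the more abundant transcripts: SLC39A6 was at or above 93.6% of the 14995 symbols with a mean of at least 0.5 FPKM, and SLC30A4 at or above 88.2%. SLC30A9, linked to mitochondrial zinc export, was at 23.1 ± 0.787 FPKM. SLC30A5, a zinc transporter of the early secretory pathway, was at 15.8 ± 1.13 FPKM. Below them, SLC39A10 (9.10 ± 0.614), SLC30A1 (8.24 ± 0.335), the zinc exporter of the plasma membrane, and SLC30A7 (7.58 ± 0.257), which fills the Golgi with zinc, stood close together in FPKM. The ranges of SLC39A10 and SLC30A1 overlapped in the controls of the TRIM28 knockdown, and no other neighbours in this order overlapped within either control group. SLC30A10 was low at 0.732 ± 0.104 FPKM, that is 53 to 75 counts per library. Between the 2 control groups none of the 9 tested genes passed (edgeR's quasi-likelihood test, adjusted p between 0.992 and 0.996), and 0% of 14839 tested genes did, with 635 at an unadjusted p under 0.05. DESeq2 called none either.

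**Figure D1:**
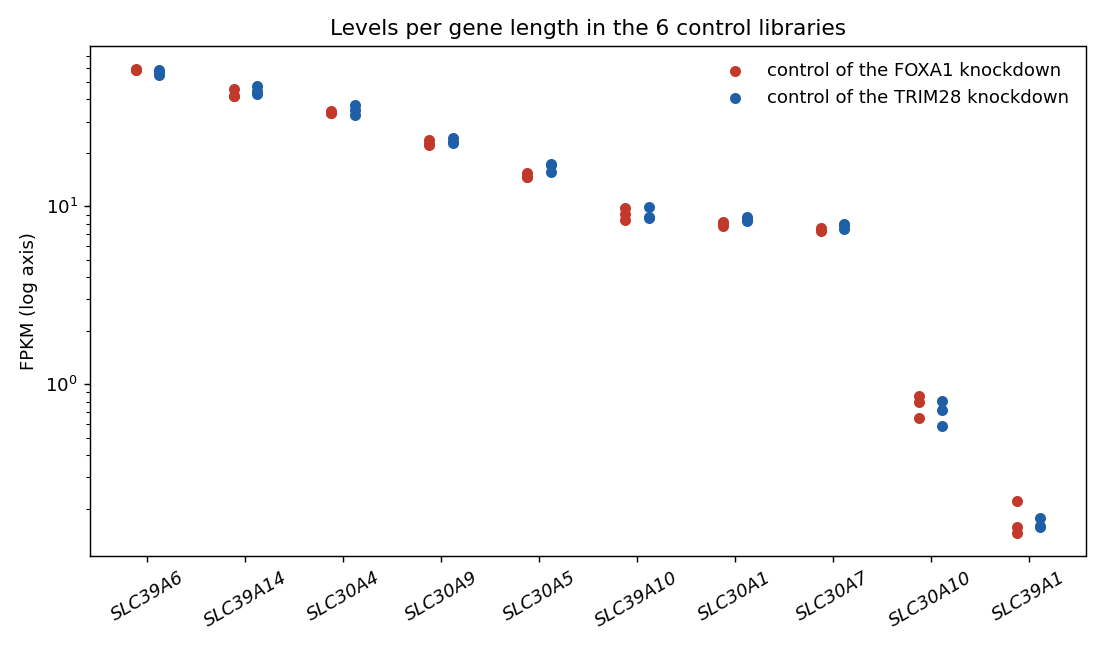
FPKM (log axis) of the 10 transporters in each of the 6 control libraries, ordered by mean; points are libraries, coloured by control group. SLC39A6 lies highest at 54.9 to 59.2 FPKM, and SLC30A10 and SLC39A1 lie below 1 FPKM.

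SLC39A1, which encodes the importer ZIP1, was all but uncounted. Whether the gene was little expressed or its reads were lost in counting cannot be told apart here. It had 6, 6 and 8 counts in the FOXA1 controls and 11, 8 and 7 in the FOXA1 knockdown. In the TRIM28 controls it had 6 counts in each library, and in the TRIM28 knockdown 7, 4 and 2. The groups overlapped in both comparisons and the gene was under the filter on low counts. In GENCODE release 29, 60.8% of the exon bases of SLC39A1 (GRCh38 chromosome 1, 153959099 to 153968184, minus strand) are shared with a longer gene on the same strand, ENSG00000285779, which the count tables list at 0 in all 12 libraries. A further 8.26% are shared with CREB3L4 on the opposite strand, which reached 1557 counts. No source used here says how the authors' counting treated reads in shared exons, and its part in the SLC39A1 values was not tested. Of the other 9 genes, SLC30A5 shared 9.2% of its exon bases with an antisense gene of at most 10 counts per library. SLC30A4 shared 4.32% with HMGN2P46 and an antisense gene, both on the opposite strand and the first with up to 562 counts, and the remaining 7 shared 0%.

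The FOXA1 knockdown had lower levels of 4 transporters and higher levels of 3. SLC30A10 and SLC30A4 fell most, to 9.22% and 24.7% of control. The importers split, SLC39A6 falling and SLC39A10 rising. Levels below are CPM (counts scaled to library size and by TMM), which suit comparison between libraries for 1 gene, and log2 fold changes are knockdown against control, where a call means an adjusted p under 0.05 over all tested genes. Of the 9 tested transporters 7 were called in the FOXA1 knockdown, where 52.4% of all 14953 tested genes were called. Of these, 3 were higher (26.1% of all genes) and 4 lower (26.3%). The choice of genes drew on this comparison, so nothing is read from those counts. Their median log2 fold change was 0.02, against -0.02 for all tested genes. Whether a lower value reflects fewer cells that express a gene or less RNA per cell cannot be told apart in these bulk samples.

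Among the exporters, SLC30A10 had 73, 64 and 75 counts in the control libraries (5.25, 4.28 and 5.70 CPM) and 7, 7 and 6 counts in the FOXA1 knockdown (0.463, 0.523 and 0.419 CPM). Every knockdown library was far below every control, and the counts in the knockdown are few enough that the size of the change is imprecise. The fitted change was -3.41 (SE 0.31), a 10.7-fold lower level. SLC30A10 (GRCh38 chromosome 1, 219685427 to 219959018, minus strand, as the deposited tables give it) is the exporter whose loss in people causes manganese overload.

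SLC30A4, the vesicular exporter, stood at 246, 239.8 and 242 CPM in the controls and at 59.4, 60.9 and 59.7 CPM in the FOXA1 knockdown. The 2 groups lay far apart and each was tight, with an SD of 2.90 and 0.824 CPM. The fitted change was -2.02 (SE 0.05), a 4.04-fold lower level. In FPKM the gene went from the third highest of the 10 transporters in the controls (33.9 ± 0.442) to the eighth in the knockdown (8.46 ± 0.156), below SLC30A7 at 9.50 ± 0.210. SLC30A9 fell slightly, from 139.7, 137 and 147 CPM to 123, 123 and 119.5 CPM (log2 fold change -0.21, SE 0.05), and the groups did not overlap.

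SLC30A1 and SLC30A7 rose by about the same small amount in the FOXA1 knockdown. SLC30A1 stood at 47.7, 45.8 and 48.8 CPM in the controls and at 61.2, 65.5 and 54.7 CPM in the knockdown, with replicate 2 highest (log2 fold change 0.35, SE 0.07). With all 12 libraries in 1 fit the SLC30A1 call was lost (0.35, adjusted p = 0.101 by edgeR). SLC30A7 stood at 62.0, 60.1 and 61.4 CPM and then at 76.3, 79.1 and 77.8 CPM (0.35, SE 0.06). Neither gene's groups overlapped. SLC30A5 was not called: it stood at 59.1, 58.7 and 62.1 CPM and at 65.9, 62.8 and 64.4 CPM, with all knockdown libraries above all controls but by a small step (0.10, SE 0.06, adjusted p = 0.178 by edgeR). The groups of 8 of the 9 tested transporters did not overlap, 4 with the knockdown higher and 4 with it lower, and 58.4% of all tested genes were in that position (29.2% and 29.2%).

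Among the importers, SLC39A6 was at 209, 212 and 212 CPM in the controls and at 148, 142 and 147 CPM in the FOXA1 knockdown. All 3 knockdown libraries were lower, to 68.9% of the control mean (log2 fold change -0.54, SE 0.05). SLC39A10, a plasma membrane importer and the closest relative of SLC39A6, went the other way. It was at 46.1, 53.2 and 50.1 CPM in the controls and at 75.4, 75.5 and 79.3 CPM in the knockdown, 154% of control (0.62, SE 0.07). SLC39A14, the manganese importer, had overlapping groups at 197, 214 and 196 CPM and at 199.7, 211 and 203 CPM (0.02, SE 0.05, adjusted p = 0.814 by edgeR), and its sign turned when control replicate 1 (-0.0027) or 3 (-0.0089) was left out. The summed level of the 6 listed exporters was 87.7 ± 1.52 FPKM in the controls and 64.3 ± 1.36 FPKM in the knockdown. That of the 4 listed importers was 111.2 ± 3.07 and 99.3 ± 0.896 FPKM (SD, n = 3). Neither pair of ranges overlapped, and both importer sums hold SLC39A1 at close to 0. The exporter sum followed SLC30A4 (33.9 and 8.46 FPKM), while the means of SLC30A1, SLC30A5 and SLC30A7 rose. Other members of the families are left out, such as SLC39A7 (51.0 and 67.2 FPKM) and SLC39A8 (44.9 and 24.0 FPKM).

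**Figure D2:**
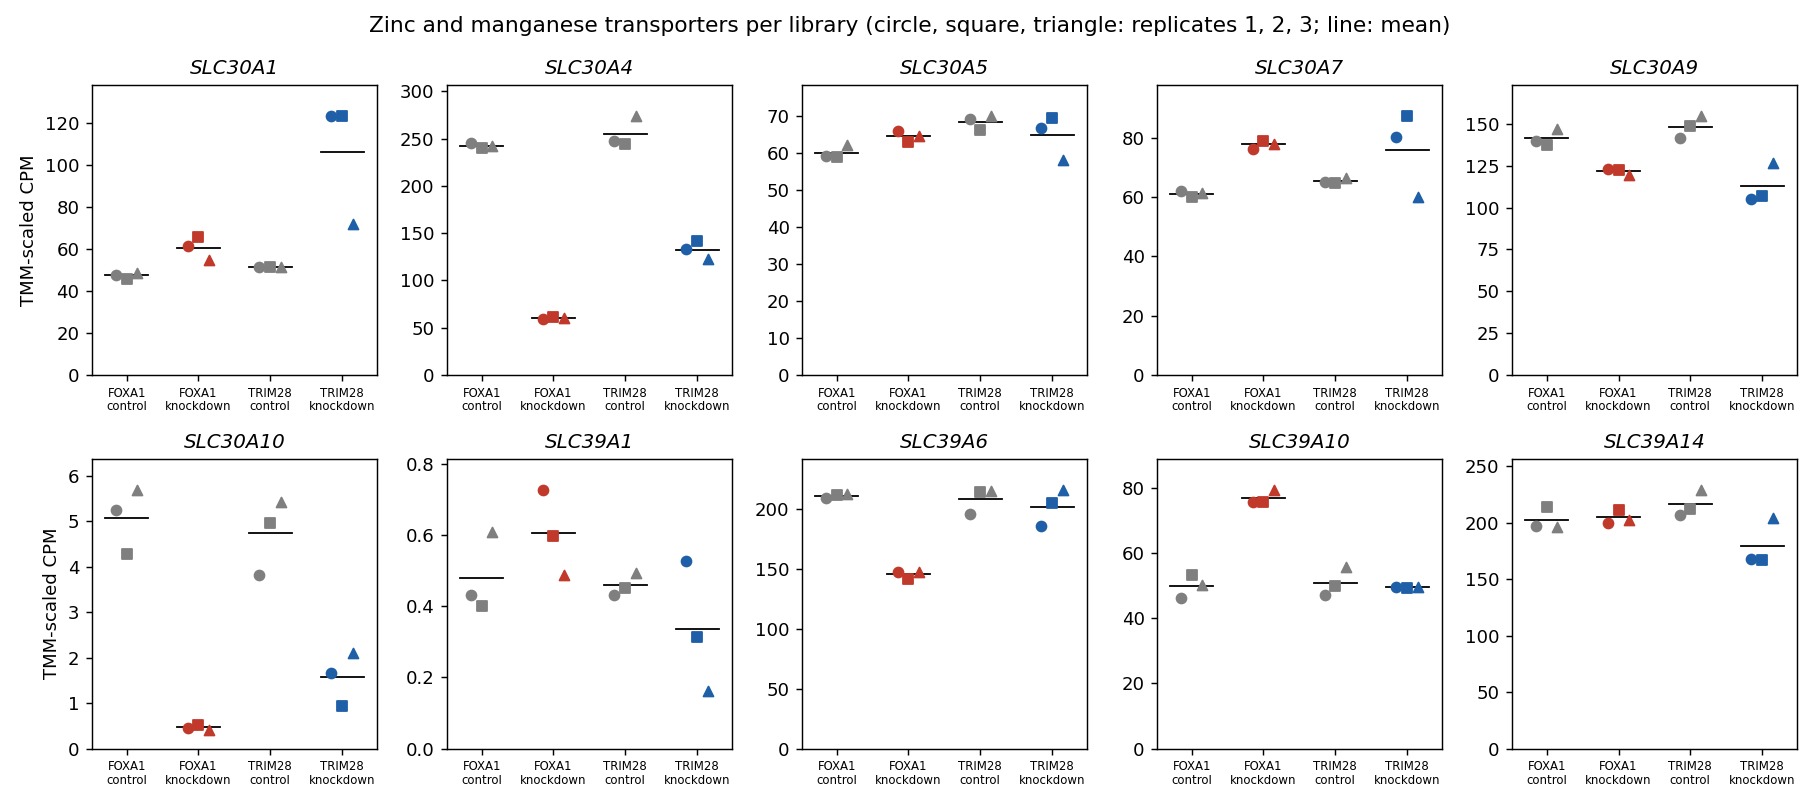
TMM-scaled CPM of each of the 10 transporters in each of the 12 libraries, by group; marker shapes are replicates 1, 2 and 3, lines are group means, and each panel starts at 0 with its own scale. SLC30A10 falls from 4.28 to 5.70 CPM in the FOXA1 controls to at most 0.523 CPM in the knockdown, and SLC30A1 reaches 123 CPM in replicates 1 and 2 of the TRIM28 knockdown but 71.7 CPM in replicate 3.

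The TRIM28 knockdown had SLC30A1 higher, at 206% of control, and SLC30A10, SLC30A4 and SLC30A9 lower, at 33.1%, 51.9% and 76.2%. None of the 3 tested importers was called. In all, 4 of 9 tested transporters were called, where 26.7% of 14981 tested genes were called, 1 higher (13.3% of all genes) and 3 lower (13.3%). Without knockdown replicate 3, 6 of 9 were called, where 45% of 15475 genes were, SLC30A7 and SLC39A14 being added. That made 2 higher (21.5% of all genes) and 4 lower (23.5%). As this comparison was also known when the list was drawn up, nothing is read from the counts. The median log2 fold change of the 9 was -0.08, against 0.00 for all tested genes.

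SLC30A1 stood at 51.4, 51.4 and 51.4 CPM in the TRIM28 controls and at 123, 123 and 71.7 CPM in the knockdown. Every knockdown library was above every control, and replicate 3 rose least. The log2 fold change was 1.05 (SE 0.19), and 1.26 (SE 0.07) without replicate 3. SLC30A1 (GRCh38 chromosome 1, 211571568 to 211579161, minus strand) is a classical target of the zinc sensor MTF1. In this knockdown MTF1 itself went from 53.4, 56.8 and 62.6 CPM to 91.9, 81.7 and 87.4 CPM. Those MTF1 groups did not overlap (0.60, SE 0.10, adjusted p = 0.00219 by edgeR, and 0.59, SE 0.08, without replicate 3). In the FOXA1 knockdown MTF1 groups overlapped (0.03, SE 0.07, adjusted p = 0.749), and the 2 effects differed (-0.56, SE 0.12, adjusted p = 0.00448). Whether MTF1 has a part in the SLC30A1 values was not tested.

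SLC30A10 had 53, 66 and 66 counts in the TRIM28 controls (3.82, 4.96 and 5.43 CPM) and 22, 12 and 26 in the knockdown (1.66, 0.944 and 2.11 CPM). All knockdown libraries were lower, replicate 2 lowest and replicate 3 least affected. The log2 fold change was -1.59 (SE 0.32), and -1.85 (SE 0.33) without replicate 3. On log2(FPKM + 1), where the added 1 exceeds the level of this gene, the change was -0.45 and not called (adjusted p = 0.0729 by limma).

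SLC30A4 stood at 247, 245 and 274 CPM in the TRIM28 controls and at 133, 142 and 122 CPM in the knockdown. The groups lay well apart, and here replicate 3 was the lowest rather than the closest to control. The log2 fold change was -0.95 (SE 0.09), or -0.90 (SE 0.07) without replicate 3. SLC30A9 stood at 142, 149 and 155 CPM and then at 105, 107 and 127 CPM (-0.39, SE 0.09), and at -0.49 (SE 0.07) without replicate 3. The SLC30A9 call was lost without control replicate 2 (adjusted p = 0.0596 by edgeR), control replicate 3 (0.0666) or knockdown replicate 2 (0.0553).

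SLC30A7 was split within the TRIM28 knockdown, at 80.1 and 87.3 CPM in replicates 1 and 2 and 60.1 CPM in replicate 3, against controls at 65.1, 64.7 and 66.3 CPM. The 2 groups overlapped through replicate 3 alone (0.21, SE 0.13, adjusted p = 0.239 by edgeR), and without it the gene was called (0.35, SE 0.08, adjusted p = 0.000254). SLC30A5 overlapped at 69.1, 66.1 and 69.9 against 66.6, 69.5 and 58.1 CPM (-0.08, SE 0.10, adjusted p = 0.575), and stood at -0.01 (SE 0.08) without replicate 3.

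Of the listed importers, SLC39A6 and SLC39A10 moved little in the TRIM28 knockdown. SLC39A6 was at 196, 214 and 215 CPM in the controls and 186, 205 and 216 CPM in the knockdown (-0.04, SE 0.09), and SLC39A10 at 47.1, 49.9 and 55.6 against 49.5, 49.3 and 49.4 CPM (-0.04, SE 0.10). Without replicate 3 the changes were -0.10 (SE 0.07) and -0.05 (SE 0.09), again with no call. Both pairs of groups overlapped, and both signs turned to positive when only library size was used for scaling (0.0297 and 0.033). SLC39A14 was at 207, 212 and 229 CPM against 168, 167 and 204 CPM, with all knockdown libraries below all controls. It missed the threshold (-0.27, SE 0.10, adjusted p = 0.0661 by edgeR), and passed without replicate 3 (-0.37, SE 0.07, adjusted p = 1.57e-05), with all 12 libraries in 1 fit (adjusted p = 0.0113) and with the replicate number as a block (adjusted p = 0.0464). The groups of 5 of the 9 tested transporters did not overlap, 1 with the knockdown higher and 4 with it lower, against 43.9% of all tested genes (21.8% and 22.1%). The summed level of the 6 listed exporters was 91.9 ± 4.13 FPKM in the controls and 82.5 ± 8.79 FPKM in the knockdown. That of the 4 listed importers was 111.1 ± 4.59 and 107 ± 6.79 FPKM (SD, n = 3), with overlapping ranges for both. These sums carry no TMM scaling, and knockdown levels stood somewhat higher in FPKM than in CPM. SLC30A4 was at 54.6% of control in FPKM and 51.9% in CPM, and SLC39A6 at 101.9% and 97.0%. In FPKM, SLC30A4 (19.1 ± 1.64), SLC30A9 (18.7 ± 1.69), SLC30A1 (18.5 ± 5.40) and SLC30A5 (16.6 ± 1.73), well apart in the controls, overlapped with their neighbours in the knockdown.

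**Figure D3:**
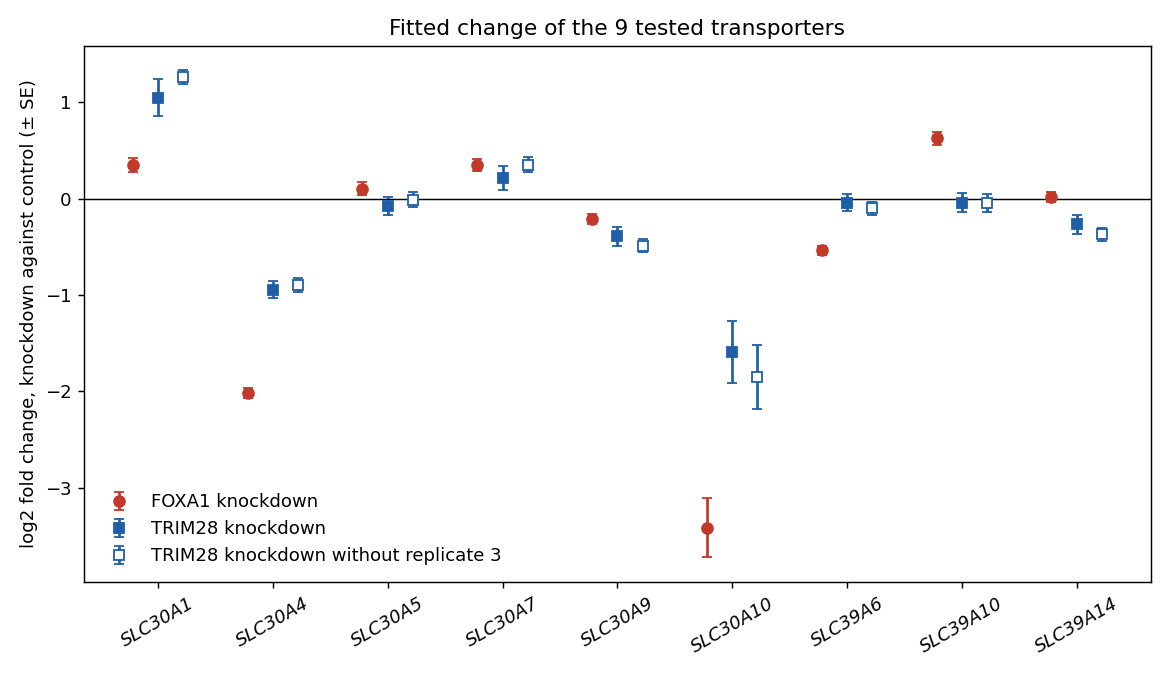
Fitted log2 fold change (± SE) of the 9 tested transporters in the FOXA1 knockdown (circles), the TRIM28 knockdown (filled squares) and the TRIM28 knockdown without its replicate 3 (open squares). SLC30A10 and SLC30A4 lie lowest in both, at -3.41 and -2.02 in the FOXA1 knockdown, and SLC30A1 lies highest in the TRIM28 knockdown at 1.05.

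The 2 knockdowns were compared directly as the difference of their log2 fold changes, FOXA1 minus TRIM28, over all 12 libraries. The exporters SLC30A4 (-1.06, SE 0.10) and SLC30A10 (-1.82, SE 0.44) and the importer SLC39A6 (-0.48, SE 0.09) had the lower change in the FOXA1 knockdown. SLC39A10 had the higher one, by 0.68 (SE 0.11). In all 4 of 9 tested transporters were called, where 10.6% of 15921 tested genes were called, 1 higher (5.98% of all genes) and 3 lower (4.59%). For SLC30A1 the difference missed the threshold (-0.69, SE 0.23, adjusted p = 0.0765 by edgeR). It was called in 3 of 19 fits, among them edgeR without TRIM28 knockdown replicate 3 (-0.90, adjusted p = 4.14e-09) and DESeq2 (-0.69, adjusted p = 0.0182). Without that replicate 7 of 9 were called, where 21.4% of all genes were, 3 higher (12.7%) and 4 lower (8.64%), the additions being SLC30A1, SLC30A9 and SLC39A14. The difference is made of the same values that were known when the genes were chosen. SLC30A10, SLC30A4 and SLC30A9 were called lower in both knockdowns, and SLC30A1 was called higher in both.

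The genes whose levels over the 12 libraries lay nearest to SLC30A10, by root mean square distance of centred log2(CPM + 1) among 10578 genes, were DDC (0.186), GDF15 (0.186), IGF1 (0.192), FOXA1 itself (0.209) and SLC45A3 (0.22). The 12 libraries form 4 groups, so this distance mostly compares the 2 knockdown effects. FOXA1 was the shRNA target in 1 of them, and SLC30A10 was taken up with its changes known, so nothing is read from their nearness. DDC, the gene of an enzyme that makes dopamine and serotonin, changed by -2.32 (SE 0.10) with FOXA1 knocked down and by -1.11 (SE 0.12) with TRIM28 knocked down. GDF15, a secreted stress cytokine, changed by -2.19 (SE 0.07) and -1.24 (SE 0.17), and SLC45A3, the gene of the prostate protein prostein, by -1.92 (SE 0.06) and -1.24 (SE 0.08). The pseudocount of 1 CPM shrinks the change of a gene as low as SLC30A10, so larger folds of more abundant genes are not its neighbours.

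The rest of the 2 families was followed in lists of its own. Of 4 other SLC30 genes only SLC30A6, whose product pairs with that of SLC30A5, was tested. It was higher in the FOXA1 knockdown (0.37, SE 0.07, adjusted p = 6.09e-05 by edgeR) and in the TRIM28 knockdown (0.28, SE 0.09, adjusted p = 0.0495), and the second call was lost without any 1 of the 3 controls or of knockdown replicates 1 and 2 (adjusted p = 0.0777 to 0.184) and kept at 0.28 (SE 0.08) without replicate 3. Of 10 other SLC39 genes 7 were tested. In the FOXA1 knockdown 2 rose and 2 fell, where 26.1% of all genes rose and 26.3% fell, with a median of 0.10 against -0.02 over all genes. In the TRIM28 knockdown 2 rose and 1 fell, where 13.3% rose and 13.3% fell, with a median of 0.10 against 0.00. The counts were again 2 and 1 without replicate 3, where 21.5% of all genes rose and 23.5% fell.

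SLC39A8, the importer most like SLC39A14 and also a carrier of manganese, fell in both. Its mean went from 186 ± 2.02 to 98.3 ± 1.31 CPM in the FOXA1 knockdown (-0.92, SE 0.05, adjusted p = 2.78e-15 by edgeR) and from 188 ± 10.2 to 98.1 ± 18.0 CPM in the TRIM28 knockdown (-0.94, SE 0.13, adjusted p = 0.00109, and -0.80, SE 0.07, without replicate 3). The groups did not overlap in either, and the difference of the effects was 0.03 (SE 0.14, adjusted p = 0.934). SLC39A13, a Golgi zinc transporter, rose from 9.92 ± 1.70 to 16.3 ± 0.826 CPM (0.71, SE 0.13, adjusted p = 3.48e-05) in the FOXA1 knockdown. It also rose in the TRIM28 knockdown by 0.62 (SE 0.16, adjusted p = 0.0177), and this call was lost without any 1 of the controls or knockdown replicate 1 (adjusted p = 0.0556 to 0.0822), with 0.66 (SE 0.15) without replicate 3. SLC39A7, which releases zinc from the endoplasmic reticulum, rose in the FOXA1 knockdown (0.39, SE 0.05, adjusted p = 1.66e-07) and was at 0.19 in the TRIM28 knockdown (adjusted p = 0.101), or 0.14 without replicate 3 (adjusted p = 0.0727). SLC39A4, the intestinal importer, was lower in the FOXA1 knockdown (-0.30, adjusted p = 0.0311), and this call was lost without control replicate 2, knockdown replicate 1 or knockdown replicate 2 (adjusted p = 0.102 to 0.24). SLC39A11 was at 0.37 in the TRIM28 knockdown (adjusted p = 0.0359), and that call was lost when any 1 library other than knockdown replicate 3 was left out (adjusted p = 0.0646 to 0.154), the change without that replicate being 0.42 (SE 0.10).

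Metallothioneins, the small proteins that buffer cytosolic zinc, were mostly uncounted. Of 13 genes of the list, 12 metallothioneins and MTF1, only MT2A, MT1X and MTF1 were tested. Metallothionein genes are similar in sequence, and whether reads were split between them was not tested. MT2A was at 56.3 ± 8.29 CPM in the FOXA1 controls and 53.0 ± 7.22 CPM in the knockdown (-0.09, SE 0.13, adjusted p = 0.603 by edgeR). In the TRIM28 comparison it was at 63.0, 77.6 and 47.6 CPM in the controls and 94.6, 125 and 69.5 CPM in the knockdown, with overlapping groups (0.62, SE 0.24, adjusted p = 0.0933), and at 0.80 (SE 0.27, adjusted p = 0.107) without replicate 3. MT1X was at most 2.91 CPM in any library. It was not called in either comparison (-0.70, adjusted p = 0.419, and -0.15, adjusted p = 0.778, turning to 0.09 without TRIM28 knockdown replicate 3), except that it was lower without FOXA1 knockdown replicate 3 (-1.60, adjusted p = 0.0343).

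Of 8 other genes of zinc and manganese transport 7 were tested, with 1 rise and 3 falls in the FOXA1 knockdown and no call in the TRIM28 knockdown (edgeR's quasi-likelihood test, the lowest adjusted p there being 0.0541 for TRPM7). Over all genes 52.4% were called in the first comparison, 26.1% higher and 26.3% lower, and 26.7% in the second. TMEM165, a Golgi protein needed for manganese supply, rose in the FOXA1 knockdown by 0.23 (SE 0.05, adjusted p = 0.000683 by edgeR). ATP2C2, a Golgi pump for calcium and manganese, changed by -0.29 (adjusted p = 0.00847), and that call was lost without control replicate 3 (0.0648) or knockdown replicate 1 (0.0861). The divalent metal importer gene SLC11A2 (-0.15) and the channel gene TRPM7 (-0.14) changed less, and their calls were lost without 3 and 5 of the 6 libraries in turn. In the TRIM28 knockdown without replicate 3, ATP2C1, ATP2C2, TMEM165 and TRPM7 were called lower (-0.26 to -0.27), 4 of the 7, where 45% of all genes were called and 23.5% were lower.

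Of 11 genes of citrate production, use and export, all tested, 4 rose and 6 fell in the FOXA1 knockdown, and 1 rose and 6 fell in the TRIM28 knockdown, with medians of -0.16 and -0.34 against -0.02 and 0.00 over all genes. The background shares were 26.1% higher and 26.3% lower in the first comparison, and 13.3% and 13.3% in the second. Some of these citrate calls were lost in several fits that left out 1 library. Among them were ACO1 in the FOXA1 knockdown (adjusted p = 0.0562 to 0.132 by edgeR) and, in the TRIM28 knockdown, IDH3B (0.056 to 0.0984) and IDH3G (0.0803 to 0.0996). Without replicate 3 of the TRIM28 knockdown 1 rose and 9 fell, with a median of -0.33, where 21.5% of all genes rose and 23.5% fell. ANKH, which exports citrate and pyrophosphate, fell in both, to 57.1% and 65.2% of control (-0.81, SE 0.07, adjusted p = 2.41e-10, and -0.62, SE 0.08, adjusted p = 0.000867, by edgeR), the second being -0.62 (SE 0.07) without replicate 3 too. CS, citrate synthase, went to 79.3% and 61.2% of control (-0.33, SE 0.05, adjusted p = 1.44e-06, and -0.71, SE 0.10, adjusted p = 0.000994), or -0.82 (SE 0.07) in the second without replicate 3. ACLY, which splits citrate for lipid synthesis, fell in the FOXA1 knockdown (-0.33, adjusted p = 2.5e-07) and was called in the TRIM28 knockdown only without replicate 3 (-0.31, adjusted p = 0.000912). IDH1, the cytosolic isocitrate dehydrogenase, rose from 556 ± 17.2 to 1105 ± 53.9 CPM in the FOXA1 knockdown (0.99, SE 0.05, adjusted p = 3.84e-17) and by 0.35 in the TRIM28 knockdown (adjusted p = 0.00802), where the call was lost without control replicate 1 (0.0504) and kept at 0.36 without knockdown replicate 3. IDH2, its mitochondrial relative, rose in the FOXA1 knockdown (0.86, SE 0.05, adjusted p = 1.03e-14) and fell in the TRIM28 knockdown (-0.41, SE 0.08, adjusted p = 0.00655, and -0.47, SE 0.07, without replicate 3), and these 2 effects differed by 1.28 (SE 0.10, adjusted p = 2.78e-07).

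**Figure D4:**
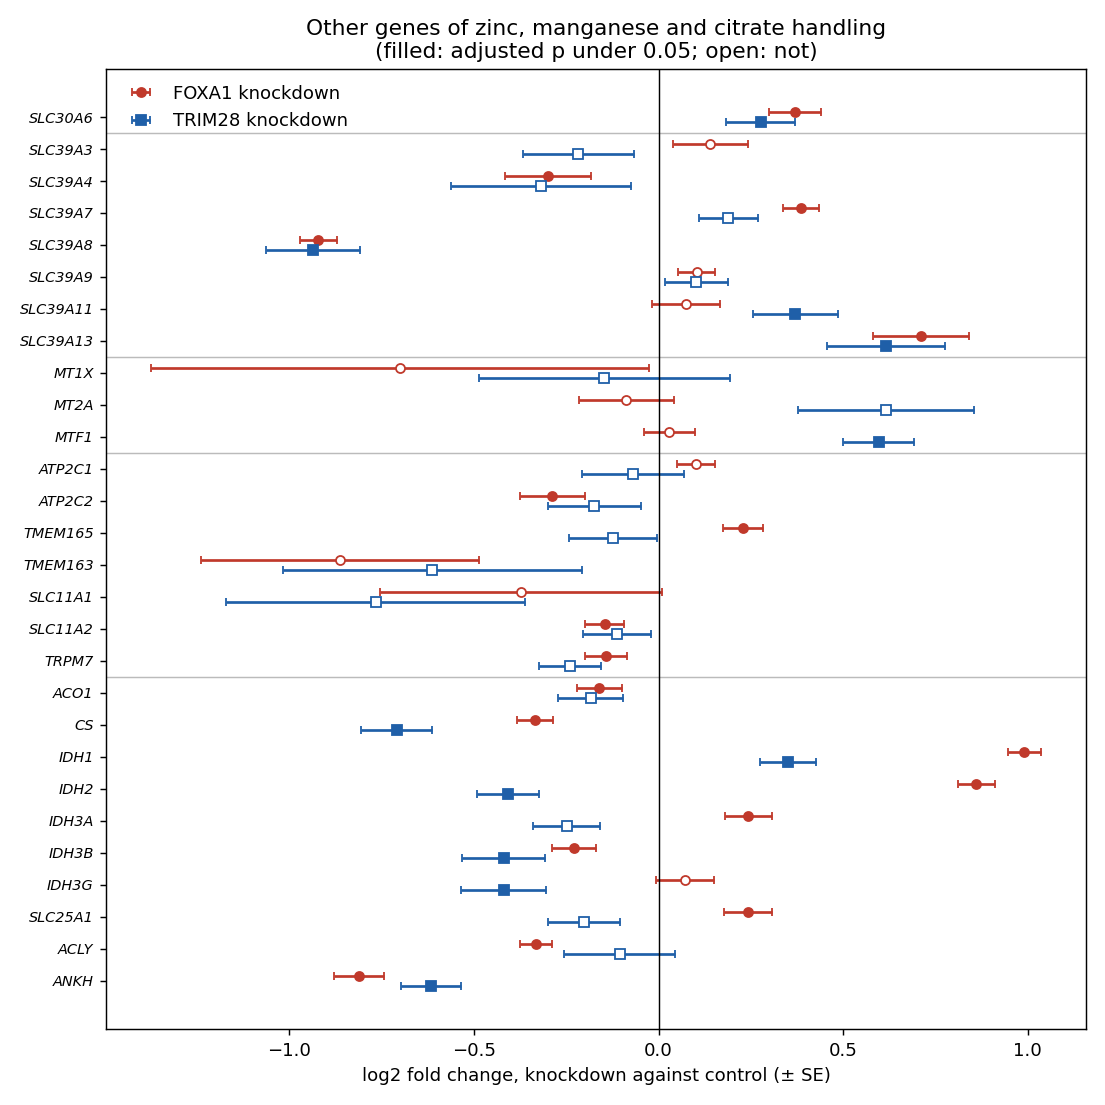
Log2 fold change (± SE) of the tested genes of the other fixed lists, except 1 citrate gene that is not shown, in the FOXA1 (circles) and TRIM28 (squares) knockdowns, grouped from top to bottom as other SLC30, other SLC39, metallothioneins with MTF1, other zinc and manganese transport, and citrate genes; filled markers are calls. SLC39A8 lies at -0.92 and -0.94, and IDH2 lies on opposite sides of 0 at 0.86 and -0.41.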

How the data were processed

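Poly(A) RNA of 12 LNCaP libraries was analysed in 4 groups of 3. For each knockdown with its control, the authors deposited 1 table of unnormalized counts by symbol, and for all 12 libraries a table of FPKM. Processing notes of the submitters name GRCh38 (hg38). The aligner, counting tool, strand setting and annotation were not given in the sources used here. Tables have 62710 lines and 60835 symbols, and a symbol repeated on several lines was kept once. Control groups were taken from titles and knockdown groups from treatment labels. Genotype labels, which number upward within a knockdown group, were not used.

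Counts were tested with edgeR 4.0.16 in R 4.3.3: filterByExpr (minimum count 10, minimum total 15), TMM scaling, robust quasi-likelihood F-tests, two-sided, Benjamini-Hochberg over all tested genes, threshold 0.05. SEs are the log2 fold change divided by the root of F. Each knockdown was fitted with its own control, and the difference over all 12 libraries. Alternatives were DESeq2 1.42.0, library size scaling, other count filters, limma 3.58.1 on log2(FPKM + 1), a replicate block, 1 joint fit and leaving out each library. The fits were tested on simulated counts. Exon overlaps used GENCODE 29 and promoters RefSeq GRCh38.p14. Members and lists were chosen with earlier results of these data known. Named genes were the 10 members, up to 4 per list and comparison with the smallest p, and the 5 nearest to SLC30A10. A few more were named for calls that changed when 1 library was left out. A depth of 12256092 to 15152890 counts leaves genes under about 10 counts untested. Values of 1 marker and 1 citrate gene are not reported here singly.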

Additional observations from a re-analysis of the deposited data

Results flagged for a closer look

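The effects of the 2 knockdowns differed for 4 transporters by the test of the difference over all 12 libraries (FOXA1 minus TRIM28, edgeR's quasi-likelihood test). SLC30A4 differed by -1.06 (adjusted p = 2.46e-06) and SLC30A10 by -1.82 (adjusted p = 0.0132), both falling in each knockdown and further with FOXA1. SLC39A6 differed by -0.48 (adjusted p = 0.00266) and SLC39A10 by 0.68 (adjusted p = 0.000762), with no call for either in the TRIM28 knockdown. The FOXA1 transcript itself stood at 28.6% to 29.2% of control in the first knockdown and at 43.0% to 70.1% in the second, and its part in these differences was not tested. The genes were chosen with these values known.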

How the results depend on the processing

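In the FOXA1 knockdown 7 transporters were called under 12 of 13 alternatives and 6 with all 12 libraries in 1 fit, where SLC30A1 was lost. In the TRIM28 knockdown 3 to 6 were called when 1 library was left out and 3 to 5 otherwise. The number of all called genes there was 3993, and 1817 to 6966 when 1 library was left out; it moved by over 1.5 times without each control (2019, 1817 and 2154), knockdown replicate 2 (2488) or replicate 3 (6966). For the difference, 1683 genes and 4 transporters were called, and 1176 to 3528 genes and 4 to 7 transporters when 1 library was left out, the highest of each without TRIM28 knockdown replicate 3. Between the controls 0 genes were called, 8 with no filter on low counts, 1 by limma on FPKM and 0 to 2 when 1 library was left out, with no transporter among them. Near 0 the sign turned for SLC39A14 in the FOXA1 knockdown (-0.0027 and -0.0089, without control replicates 1 and 3, and at most 0.059 when 1 library was left out) and in the TRIM28 knockdown for SLC39A6 (0.0297 by library size, 0.026 by limma, -0.1003 to 0.012 when 1 library was left out, the highest without knockdown replicate 1) and SLC39A10 (0.033 by library size, 0.0301 by limma, -0.105 to 0.019, the highest without control replicate 3). Between the controls it turned for SLC39A10 (-0.079 to 0.034, with 0.034 without FOXA1 control replicate 2 and 0.026 and 0.0041 without TRIM28 control replicates 1 and 2), SLC30A4 (-0.0201 to 0.066) and SLC30A9 (-0.0025 to 0.055), the last 2 lowest without TRIM28 control replicate 3. No call was involved, and the cause was not tested. SLC30A10 depended most on the scale: on log2(FPKM + 1) its change was -0.72 in the FOXA1 and -0.45 in the TRIM28 knockdown, and the difference of -0.27 was not called (adjusted p = 0.396), as the added 1 exceeds its level. With library size scaling 63.4% of calls in the TRIM28 knockdown were higher, against 49.9%, and 40% against 56.6% for the difference.

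Same-numbered libraries did not pair: the correlation of their deviations from the group means was -0.03, 0.02 and 0.15 in the FOXA1 comparison and 0.05, -0.08 and 0.03 in the TRIM28 comparison. With the replicate number as a block, 7997 genes were called in the FOXA1 knockdown (7 transporters), 3846 in the TRIM28 knockdown (5, with SLC39A14 added) and 1597 for the difference (4). No paired analysis was run between the controls, whose replicate numbers belong to different knockdown comparisons.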
